A study of Mus musculus with 4 samples.

Results

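Npy, Sst, Vip, Cck, Crh, Tac2 and Nts, 7 genes that encode the precursors of neuropeptides made by inhibitory and other forebrain neurons, were followed in spatial transcriptome sections of mouse brain. They were chosen by symbol and are 7 of the 19465 genes listed for each section. The study holds 4 formalin-fixed, paraffin-embedded sections of 5 µm, each captured on a Visium array, on which RNA is counted as unique molecular identifiers (UMI, 1 per captured molecule) in small spots that each cover several cells. A pair of sections has the genotype Control and a pair the genotype rNLS8. In each pair replicate 1 is labelled female and replicate 2 male. The mice of both genotypes were 11 weeks old, and in both groups doxycycline had been withdrawn for 3 weeks, so withdrawal itself does not separate the groups. The rNLS8 line expresses human TDP-43 with a defective nuclear localization signal. Its transgene is switched on by a transactivator under the promoter of the neurofilament heavy chain gene and is held silent by doxycycline, so withdrawal turns it on mainly in neurons that use that promoter. The labels state neither the strain nor which transgenes the Control mice carry. The labels do not say that the sections came from separate mice, so every p-value measures only the spread between these sections.

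Neuropeptides are cut from longer precursors in dense-core vesicles and act on G protein-coupled receptors more slowly than GABA or glutamate. In the neocortex Npy and Sst are made by inhibitory neurons that in part overlap, Vip marks a separate class of inhibitory neurons that often contact other inhibitory neurons, and Crh and Tac2 are found in part of the Vip class. Cck is made by a class of inhibitory basket cells and, as transcript, by many excitatory pyramidal neurons, whereas Nts is best known from the septum, striatum and hypothalamus.

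Several of these genes are textbook targets of cAMP signalling, and the Sst promoter is the one in which the cAMP response element was defined. For that reason the 250 bases before the start of 4 genes are shown. They are the inhibitory neuron peptide with the element (Sst), the peptide that was lowest against control in the upper cortical layers (Npy), the peptide called lower in each of the 3 layer classes (Cck) and the one that was higher (Tac2). The sequences are from RefSeq on GRCm38.p6, 5′ to 3′ on the gene's strand, at chr16:23890845-23891094 on the minus strand for Sst, chr6:49822460-49822709 on the plus strand for Npy, chr9:121495695-121495944 on the minus strand for Cck and chr10:127724228-127724477 on the plus strand for Tac2. Capitals mark the full element TGACGTCA in Sst and, in Cck, its 5-letter part TGACG or CGTCA, both searched on both strands; the full element contains both 5-letter parts, which overlap in it.
Sst: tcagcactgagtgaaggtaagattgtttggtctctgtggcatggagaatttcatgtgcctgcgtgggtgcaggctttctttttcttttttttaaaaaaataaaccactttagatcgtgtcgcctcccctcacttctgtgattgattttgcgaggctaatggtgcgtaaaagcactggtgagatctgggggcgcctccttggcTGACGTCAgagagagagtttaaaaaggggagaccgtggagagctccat
Npy: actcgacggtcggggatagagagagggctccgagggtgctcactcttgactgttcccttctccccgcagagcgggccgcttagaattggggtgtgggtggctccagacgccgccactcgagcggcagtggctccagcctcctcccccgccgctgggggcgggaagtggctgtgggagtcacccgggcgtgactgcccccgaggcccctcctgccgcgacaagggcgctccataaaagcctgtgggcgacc
Cck: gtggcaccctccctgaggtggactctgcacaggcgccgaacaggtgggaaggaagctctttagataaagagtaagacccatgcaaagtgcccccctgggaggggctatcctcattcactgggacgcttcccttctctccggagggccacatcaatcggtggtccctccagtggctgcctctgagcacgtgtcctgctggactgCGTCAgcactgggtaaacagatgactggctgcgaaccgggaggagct
Tac2: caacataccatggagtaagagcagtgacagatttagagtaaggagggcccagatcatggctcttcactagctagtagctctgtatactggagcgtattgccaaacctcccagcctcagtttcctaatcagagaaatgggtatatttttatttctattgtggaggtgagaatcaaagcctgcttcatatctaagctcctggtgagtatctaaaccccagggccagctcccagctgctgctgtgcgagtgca
A window was held for 6 of the 7 genes, and Crh was not among them. The full element occurred in 1 of the 6, beginning at base -48 from the start of Sst. The 5-letter part occurred in 4 of the 6, at -48 and -45 in Sst, -79 in Vip, -47 in Cck and -166 in Nts. Over all 32851 such windows of 250 bases, 1.55% held the full element and 17.8% the 5-letter part. These matches describe letters in the windows and were not tied to the measurements.

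The sections held 2656 to 3962 spots under tissue with 17627577 to 28056089 UMI, a median of 5074 to 9772 UMI per spot. The files list 4 Y-linked genes, which had 0 UMI in control replicate 1 and 2452 to 3836 UMI in the other 3 sections, so rNLS8 replicate 1, labelled female, carried Y-linked transcripts. Control replicate 1 was thus the only section without them. Results without it or without rNLS8 replicate 1 are given for part of the comparisons only. The closing section gives ranges over left-out sections. Tardbp, the mouse gene of TDP-43, had 0 UMI in both control sections and 197 and 138 in the rNLS8 sections. Since cells in general use this gene, a 0 in both control sections is no measure of its expression, and whether both groups were captured with the same probes was not tested, which bears on every level compared between them. Among all genes, 3 had 0 UMI in both control sections and at least 20 in each rNLS8 section, namely Tardbp, Cort and S100a11, and 1, Abhd6, showed the reverse (named after their values were seen). Cortex, claustrum and endopiriform nucleus, striatum, septum, fibre tracts, and meninges with vessels were found by clustering spots without the 7 genes and by marker genes. Excitatory neuron, inhibitory neuron, astrocyte and oligodendrocyte marker lists all had UMI in the cortex of every section. Cortical spots numbered 809 and 654 in the control sections and 699 and 819 in the rNLS8 sections, but different clusters held most of them. Control cortex lay mainly in clusters 6, 8 and 16, and rNLS8 cortex mainly in clusters 1 and 15. Cluster 1, with 6 and 4 control spots against 283 and 470 rNLS8 spots, was kept with the cortex for its cortical markers, although the immune and stress genes Cst7, Cxcl10, Tnfrsf12a, Cd52 and B2m lead it. In the striatum too, cluster 13 held 269 spots of rNLS8 replicate 1 and cluster 20 held 224 of rNLS8 replicate 2, against at most 13 in a control section.

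Levels are given as counts per 1000000 UMI (CPM) after trimmed-mean scaling of the summed spots of a tissue in a section, and levels of different genes are not set against each other, since probe number and length differ. In control sections the 7 genes had different maps. Npy was highest in the claustrum (661 ± 375 CPM, SD, n = 2), layer 6 (531 ± 56.2) and the upper layers (515 ± 15.9), whose ranges overlapped, and these upper layers stood above the meninges (362 ± 57.6) and layer 5 (359 ± 44.3). It was lowest in the septum, at 175 and 125 CPM. Sst was highest in the claustrum (1323 ± 293), above layer 6 in both sections but overlapping layer 5, and lowest in the fibre tracts (571 ± 81.0) and meninges (537 and 597 CPM). The 3 neocortical layer classes overlapped for Sst, at 990 CPM in layer 6, 982 in layer 5 and 798 in the upper layers.

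Vip descended from 67.3 CPM in the upper layers to 50.4 in layer 5 and 37.3 in layer 6, with neighbours overlapping, and reached 8.38 in the ependyma. Cck was highest in the upper layers (1942 CPM) and layer 5 (1834), which overlapped, and layer 5 was separate from the claustrum (1662), which was separate from layer 6 (1389). It was lowest in the basal forebrain (295). Tac2 ranged from 38.4 CPM in the upper layers to 8.45 in the septum with no neighbours apart. Crh ranged from 72.0 CPM in the basal forebrain, preoptic area and hypothalamus to 16.5 in the claustrum, again with overlapping neighbours, and its range in the upper layers (33.8 to 68.9 CPM) overlapped that of the basal forebrain.

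Nts went against the description of a cortical peptide. It was at 72.2 CPM in the septum, separate from 42.6 in the basal forebrain and 28.9 in the ependyma, and at 4.00 CPM or below in each cortical layer class. These orders are descriptions of 2 control sections, since the tissues were defined on the same spots.

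**Figure D1:**
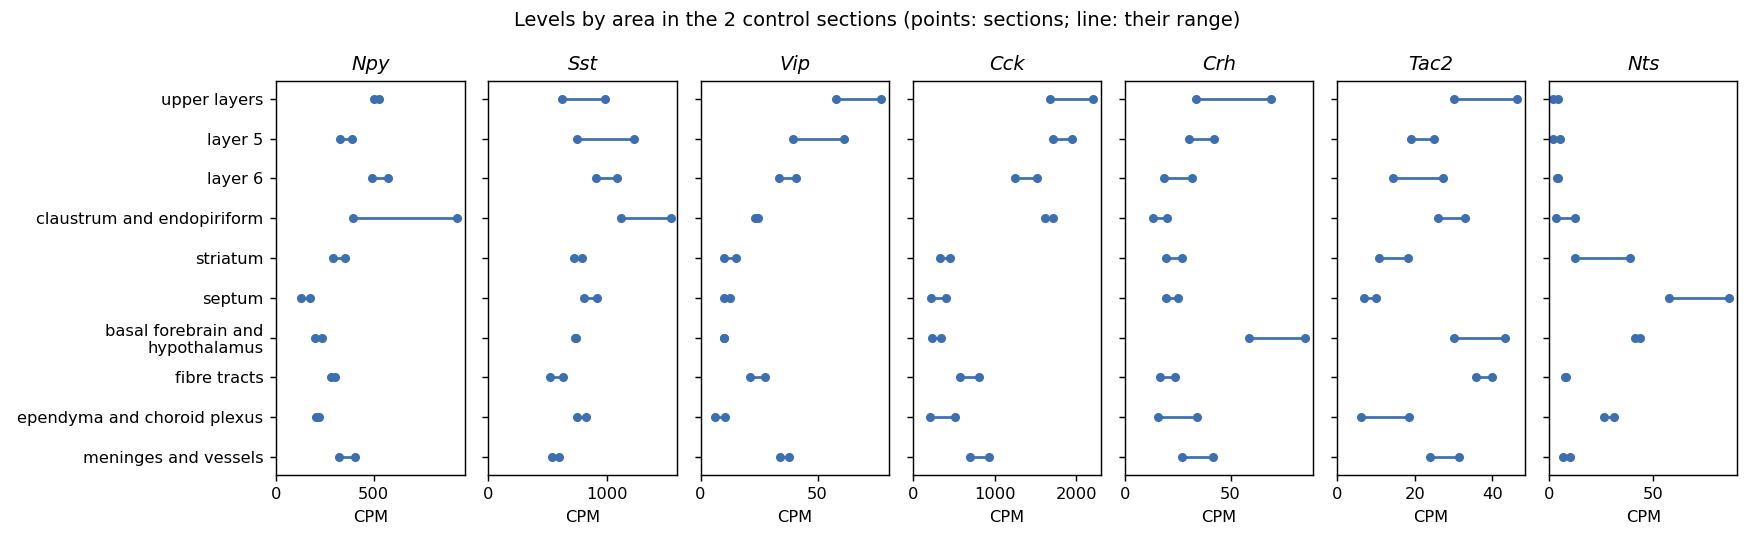
Level of each of the 7 genes in the 2 control sections by tissue or cortical layer class, in CPM. Each point is 1 section and each line their range; Npy and Sst are highest in the claustrum (661 and 1323 CPM) and Cck in the upper layers (1942 CPM), Vip and Tac2 reach their highest mean in the upper layers (67.3 and 38.4 CPM), and Nts is highest in the septum (72.2 CPM).

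The authors' deposited table of spatial patterning, which scores each gene's clustering in space by Moran's I within a section, placed Cck high, with scores of 0.333 and 0.399 in the control and 0.444 and 0.326 in the rNLS8 sections and ranks of 7, 7, 12 and 23 among 15084 to 15741 genes. In the authors' deposited table Npy scored 0.129 and 0.105 against 0.113 and 0.076, and Nts 0.142 and 0.081 against 0.129 and 0.059. There Sst scored 0.097 and 0.086 in control against 0.151 and 0.122 in rNLS8 sections, higher in both. Vip, Crh and Tac2 scored 0.082 or lower in every section of the authors' deposited table.

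Over whole sections, none of the 7 genes differed between genotypes after adjustment, while Npy, Cck, Crh and Nts were lower and Tac2 higher in both rNLS8 sections than in either control section. Npy was at 338 and 387 CPM in control and 234 and 216 CPM in rNLS8 sections (log2 -0.69 ± 0.15, SE). Tac2 was at 25.6 and 19.0 CPM against 41.9 and 49.0 CPM (log2 1.03 ± 0.20). Cck was at 1067 and 786 CPM against 425 and 738 CPM, a gap of 786 to 738 at its narrowest. Crh was at 40.2 and 27.5 CPM against 23.8 and 17.4 CPM, and Nts at 24.5 and 12 CPM against 11.5 and 4.47 CPM. The groups overlapped for Sst (786 and 872 against 806 and 666 CPM) and Vip (26.3 and 28.2 against 24.5 and 33.3 CPM). By edgeR's quasi-likelihood test with Benjamini-Hochberg adjustment, 0 of 7 members and 0% of 13444 genes were called at an adjusted p under 0.05. The groups did not overlap for 5 of 7 members and 52.1% of all genes. At an unadjusted p under 0.05 there were 3 members (Npy, Crh and Tac2) and 15.6% of genes, and DESeq2 called 2 members, Npy and Tac2, and 3.93% of genes. Whole sections mix tissues in different shares, since the cortex took 19.8% to 30.8% of kept spots, so the tissues were compared one by one. The sections also differed in which parts of the brain they held. The basal forebrain, preoptic area and hypothalamus had 269 and 163 spots in control and 305 and 4 in rNLS8 sections. Cortical cluster 24 had 84 spots in rNLS8 replicate 2 against 0, 0 and 1 in the others. Whether a tissue was cut at the same level in every section was not tested, which limits each comparison by tissue.

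In the cortex, Npy, the precursor of neuropeptide Y, which several classes of inhibitory neuron release, was the member that passed the test. It stood at 438 and 482 CPM in the control sections and 222 and 245 CPM in the rNLS8 sections, so the groups did not overlap and the rNLS8 mean was 50.8% of control (log2 -0.98 ± 0.15, adjusted p = 0.0451 by edgeR's quasi-likelihood test). Of 7 members 1 was called, beside 1.05% of the 12068 genes tested (0.447% higher and 0.605% lower), and 4 of 7 had an unadjusted p under 0.05, as had 20.2% of all genes. The median log2 difference of the 7 was -0.74 against 0.02 over all genes tested. The groups did not overlap for 6 of 7, Nts being the exception, but neither did they for 54.9% of all genes tested. Across the tissues 39.3% to 54.9% of genes did not overlap between groups, so such separation of a member is by itself common. The Npy call ended without rNLS8 replicate 1 (log2 -0.91, adjusted p = 0.233) and without rNLS8 replicate 2 (log2 -1.05, adjusted p = 0.183), and at a finer clustering (Leiden resolution 1.6, adjusted p = 0.0597). Without control replicate 1, which leaves sections that all carry Y-linked UMI, it was -1.05 with an adjusted p of 0.00104, in a fit that called 10.7% of all genes. In a bulk sum of spots, fewer cells of a type and less RNA per cell cannot be told apart.

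The Npy difference was larger in the upper layers of the cortex. Cortical spots were assigned to upper layers (layers 2 to 4), layer 5 or layer 6 by the highest of 3 marker scores, averaged over neighbouring spots; these classes are ranges of a score, and 8.11% to 23.5% of their spots lay near a boundary. In the upper layers Npy fell from 526 and 504 CPM in the control sections to 184 and 176 CPM in the rNLS8 sections, 34.9% of the control mean (log2 -1.52 ± 0.17, adjusted p = 0.00312). Each rNLS8 section was far below both control sections. In layer 6 it was at 491 and 571 CPM against 280 and 297 CPM (log2 -0.88 ± 0.16, adjusted p = 0.0367), again without overlap. In layer 5 it was at 328 and 390 CPM against 213 and 272 CPM and did not pass the test (log2 -0.57 ± 0.18, adjusted p = 0.132). The upper-layer call held in all 8 alternatives run, with adjusted p from 1.57e-11 to 0.0148 and log2 differences of -1.58 to -1.49 when 1 section was left out. The layer 6 call ended without rNLS8 replicate 1 (adjusted p = 0.350) or replicate 2 (adjusted p = 0.375), with a range of 7.57e-13 to 0.375 over the alternatives.

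**Figure D2:**
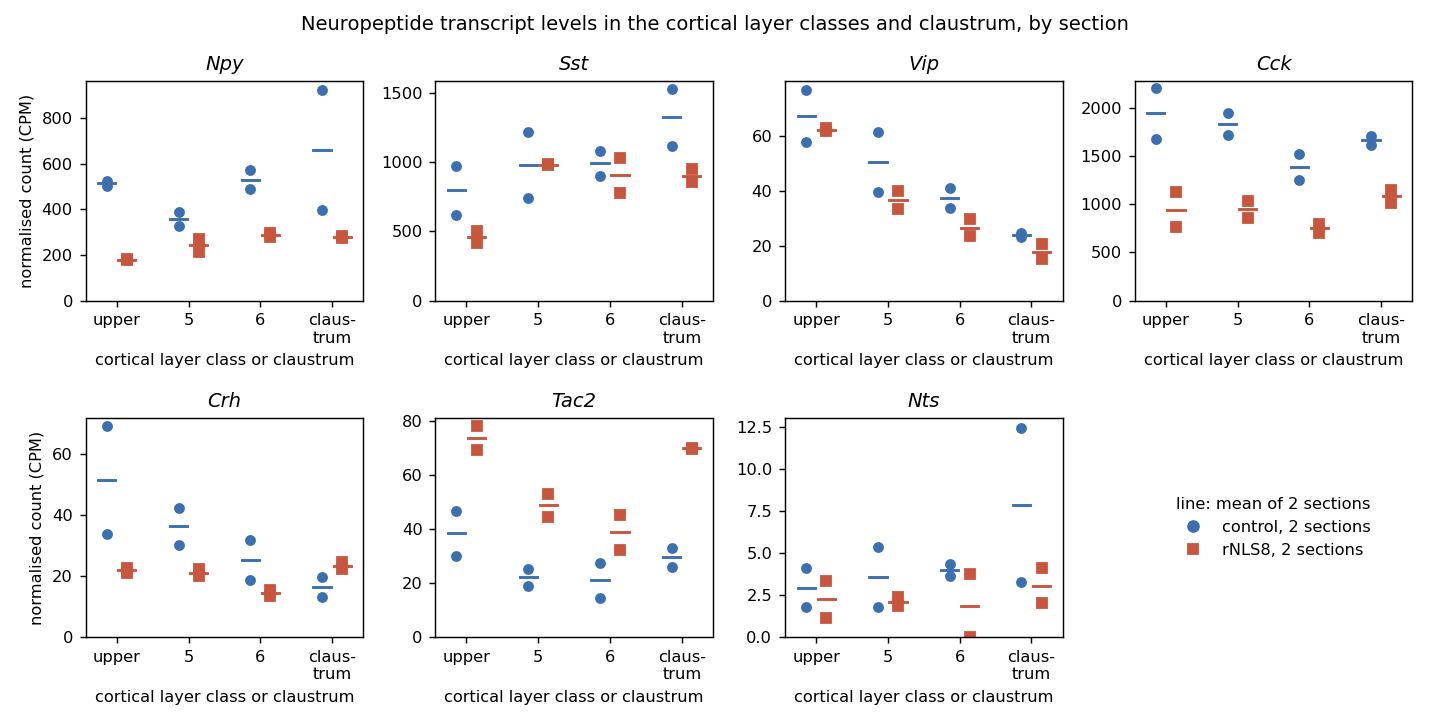
Levels of the 7 genes in the upper layers, layer 5, layer 6 and claustrum, in CPM; points are sections and lines group means. Npy in the upper layers is at 526 and 504 CPM in the control and 184 and 176 CPM in the rNLS8 sections, Cck is lower in every class, and Tac2 is higher in every class.

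Of 6 members tested in the upper layers 2 were called, Npy and Cck, beside 3.03% of 10626 genes (1.17% higher and 1.86% lower). The call rates among all genes were 1.96% in layer 5 (0.764% higher and 1.20% lower), where Cck was called lower and Tac2 higher (2 of 6). They were 1.51% in layer 6 (0.560% higher and 0.946% lower), where Npy and Cck were called lower (2 of 6). Nts was too low to be tested in any layer class. The upper-layer scores rest on markers of which several were themselves lower in the rNLS8 upper layers. Calb1 was at 776 and 708 CPM in control against 268 and 247 CPM in rNLS8 sections, and Lamp5 at 283 and 471 against 141 and 69.6 CPM, whereas Cux2 was at 37.3 and 54.4 against 51.0 and 42.8 CPM. The part of such marker changes in where the boundaries fell was not tested, since every scoring used these markers. Scoring spots without their neighbours kept 58.6% to 84.1% of spots in their class. It gave Npy -1.23 in the upper layers (adjusted p = 0.00642).

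The ratio of upper-layer to layer 5 Npy within a section was 1.6 and 1.30 in the control and 0.862 and 0.643 in the rNLS8 sections. Npy was thus higher in the upper layers than in layer 5 in both control sections and lower there in both rNLS8 sections. How far single spots with many Npy UMI set these ratios was not tested. The test of the difference between layers gave a further -0.92 ± 0.11 on the log2 scale in the upper layers against layer 5 (adjusted p = 2.51e-07 by edgeR's quasi-likelihood test, called in all 7 alternatives, 4.9e-17 to 0.00137). Here 2 of 6 members were called, Npy and Sst, beside 0.580% of 11031 genes (0.299% higher and 0.281% lower). Against layer 6 the Npy difference was -0.62 ± 0.10 (adjusted p = 0.000866; 1 of 6 members, beside 0.236% of genes, 0.0907% higher and 0.145% lower). That call ended with DESeq2 (adjusted p = 0.184) and without averaging over neighbours, where the difference was -0.09 (adjusted p = 0.869), so it depends on how layer boundaries were drawn. Between layers 5 and 6, 0 of 6 members were called by edgeR and 0 by DESeq2, beside 0.0453% of genes (0.0272% higher and 0.0181% lower), and 1, Npy, had an unadjusted p under 0.05, as had 5.96% of genes. DESeq2 called 0.0181% of genes. The layer tests compare layers within a section, with 1 sum per layer and section. Their error is therefore how far the differences between layers varied from section to section. It is moderated over all genes, so it can be narrower than the spread of the ratios of 1 gene.

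In the claustrum and endopiriform nucleus Npy was at 396 and 926 CPM in control and 283 and 275 CPM in rNLS8 sections (log2 -1.25 ± 0.26, adjusted p = 0.0171). Control replicate 2 decided this size. In it 1 spot with 211 UMI held 25% of the Npy UMI of that tissue, and without this section the difference was -0.53 (adjusted p = 0.130). DESeq2 gave an adjusted p of 0.266. Of 6 members tested there 3 were called, Npy, Cck and Tac2, beside 2.62% of 8694 genes (0.828% higher and 1.79% lower). The groups did not overlap for any of the 6, nor for 48.0% of all genes tested there.

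Npy passed the edgeR test in no other tissue tested. In the striatum it was at 293 and 353 against 260 and 183 CPM (log2 -0.54 ± 0.20, adjusted p = 0.249), without overlap. In the meninges it was at 321 and 403 against 210 and 177 CPM, also without overlap. That difference (log2 -0.91 ± 0.19, adjusted p = 0.0875) was about as large as those in the cortex and layer 6. In the fibre tracts Npy was at 302 and 283 against 209 and 296 CPM. In the septum it was at 175 and 125 against 202 and 137 CPM, with overlap in both tissues. The difference between cortex and all other spots was -0.44 ± 0.12 for Npy (adjusted p = 0.139). In that test 0 of 7 members were called by edgeR and 0 by DESeq2, beside 0.318% of 12891 genes (0.140% higher and 0.178% lower), and 3 (Npy, Vip and Cck) had an unadjusted p under 0.05, against 10% of genes. DESeq2 called 0.116% of genes. On these tests, a lower Npy is not shown to be particular to the cortex.

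Sst, the somatostatin precursor and a marker of inhibitory neurons that contact distal dendrites, did not pass the test in the cortex as a whole. It was at 808 and 1033 CPM in control against 756 and 802 CPM in rNLS8 sections (log2 -0.24 ± 0.17, adjusted p = 0.457). The lowest control section and the highest rNLS8 section were 808 and 802 CPM, so the groups barely stood apart. In the upper layers it was at 621 and 975 against 504 and 419 CPM (log2 -0.79 ± 0.23, adjusted p = 0.0896), with no overlap. In layer 5 it was at 744 and 1220 against 983 and 981 CPM (log2 0.00 ± 0.22), and in layer 6 at 1081 and 900 against 777 and 1031 CPM, with overlap in both. The upper-layer value passed the test in 4 of 8 alternatives, with adjusted p from 2.14e-05 to 0.677. It passed with DESeq2 (adjusted p = 0.0190) and without control replicate 1 (log2 -1.08, in a fit that called 8.80% of all genes), and missed without rNLS8 replicate 1 (adjusted p = 0.240) or replicate 2 (0.677) and without averaging over neighbours (log2 -0.52, adjusted p = 0.227). Without control replicate 2, a fit in which it also passed, the difference was smaller, at -0.46.

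The ratio of upper-layer to layer 5 Sst was 0.833 and 0.802 in the control sections, close to each other, and 0.513 and 0.425 in the rNLS8 sections. The test of that difference gave -0.78 ± 0.15 (adjusted p = 0.00318 by edgeR's quasi-likelihood test). It ended with DESeq2 (adjusted p = 0.992) and without rNLS8 replicate 2 (-0.68, adjusted p = 0.0884), and was called in 5 of 7 alternatives. Against layer 6 the ratio was 0.569 and 1.09 in control and 0.648 and 0.409 in rNLS8 sections, which overlapped, and the difference was not called (-0.62 ± 0.16, adjusted p = 0.0733). In the claustrum Sst was at 1116 and 1530 against 948 and 858 CPM (adjusted p = 0.0798). In striatum, septum, fibre tracts and meninges its groups overlapped and its log2 difference lay between -0.09 and 0.20.

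Vip, which relaxes vessels and marks inhibitory neurons that act on other inhibitory neurons, passed the test in no tissue. In the cortex it was at 43.6 and 60.3 CPM in control and 41.9 and 42 CPM in rNLS8 sections (log2 -0.31 ± 0.20, adjusted p = 0.413). In the upper layers, where it was highest, it was at 57.7 and 76.9 against 63.0 and 61.6 CPM, with overlap. Layer 5 had 39.5 and 61.3 against 33.4 and 40.0 CPM and layer 6 had 33.7 and 40.9 against 29.7 and 23.4 CPM. In the septum it lay the other way without overlap, at 10.00 and 12.4 against 16.4 and 37.0 CPM, a wide spread in the rNLS8 sections (adjusted p = 0.718), and in the fibre tracts too (log2 0.25 ± 0.30, adjusted p = 0.764). The difference between cortex and other spots was -0.69 ± 0.20 for Vip (adjusted p = 0.187), called without rNLS8 replicate 1 (-1.01, adjusted p = 0.000763, in a fit that called 3.38% of all genes).

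Cck, a peptide of basket cells that is also transcribed in pyramidal neurons, was lower in rNLS8 sections in every cortical layer class. In the cortex it was at 1914 and 1557 CPM against 775 and 985 CPM (log2 -0.98 ± 0.19), and this missed the threshold (adjusted p = 0.0653). It passed with DESeq2 (adjusted p = 4.86e-05) and without the filter on low counts (adjusted p = 0.0337), over a range of 4.86e-05 to 0.415. In the upper layers Cck fell from 2202 and 1681 CPM to 766 and 1123 CPM (log2 -1.04 ± 0.22, adjusted p = 0.0399). In layer 5 it fell from 1950 and 1717 to 859 and 1031 CPM (log2 -0.96 ± 0.16, adjusted p = 0.0237). In layer 6 it fell from 1525 and 1253 to 701 and 799 CPM (log2 -0.89 ± 0.16, adjusted p = 0.0367). In none of the 3 did the groups overlap, and each rNLS8 mean was 48.6% to 54.0% of control.

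Each of these Cck calls depended on having both rNLS8 sections. Without rNLS8 replicate 1 the adjusted p was 0.458, 0.315 and 0.374 in the upper layers, layer 5 and layer 6, and without replicate 2 it was 0.0740, 0.123 and 0.267, with log2 differences of -1.34 to -0.79. With the replicate number as a block the upper-layer call ended as well (log2 -1.05, adjusted p = 0.0607), although the numbers do not pair the sections. Unlike Npy, the Cck difference was much the same size in all layers. Upper against layer 5 it was -0.07 ± 0.08 (adjusted p = 0.873) and upper against layer 6 -0.14 ± 0.08 (adjusted p = 0.650). In the claustrum Cck fell from 1710 and 1614 CPM to 1017 and 1143 CPM (log2 -0.62 ± 0.14, adjusted p = 0.0210), a call that ended without control replicate 2 (adjusted p = 0.0527) or either rNLS8 section (adjusted p = 0.408 and 0.282). In the striatum it was at 452 and 328 against 211 and 296 CPM and in the fibre tracts at 807 and 583 against 400 and 579 CPM, where the nearest sections of the groups were 583 and 579 CPM. The difference between cortex and other spots was -0.49 ± 0.14 (adjusted p = 0.149).

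Tac2, the precursor of neurokinin B, which acts on the receptor Tacr3, was the member that was higher. In layer 5 it rose from 25.1 and 19.1 CPM in the control to 44.6 and 52.8 CPM in the rNLS8 sections (log2 1.14 ± 0.23, adjusted p = 0.0439). In the claustrum it rose from 26.0 and 33.0 to 69.9 and 69.6 CPM (log2 1.23 ± 0.27, adjusted p = 0.0195). Both rNLS8 sections were above both control sections in each. The claustrum values rest on 21 and 30 UMI in the control and 69 and 34 UMI in the rNLS8 sections. Leaving out any 1 section ended the claustrum call, with adjusted p from 0.0772 to 0.126 and log2 differences of 1.08 to 1.39. The layer 5 call ended without rNLS8 replicate 2 (adjusted p = 0.329) and without averaging over neighbours (adjusted p = 0.0833), over a range of 0.00861 to 0.329.

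In the cortex as a whole Tac2 was at 32.5 and 21.5 CPM against 51.6 and 55.6 CPM (log2 0.99 ± 0.22, adjusted p = 0.0874). It passed with DESeq2 (adjusted p = 0.0204), within a range of 0.00157 to 0.236. The upper layers gave 46.5 and 30.2 against 77.9 and 69.1 CPM (adjusted p = 0.0619), and layer 6 gave 27.4 and 14.5 against 32.3 and 45.1 CPM (adjusted p = 0.187). Tac2 was not confined to the cortex. It was at 18.4 and 10.7 against 25.4 and 41.9 CPM in the striatum, 10.00 and 6.89 against 27.7 and 18.5 CPM in the septum, and 31.5 and 24.0 against 61.4 and 61.2 CPM in the meninges, without overlap and without passing the test. The fibre tracts were the exception, at 35.8 and 40.0 against 34.9 and 35.9 CPM. The difference between cortex and all other spots was -0.04 ± 0.15.

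Crh, the precursor of corticotropin-releasing hormone, was lower in the cortex of both rNLS8 sections without passing the test. It was at 47.6 and 27.8 CPM against 19.4 and 19.1 CPM (log2 -0.97 ± 0.27, adjusted p = 0.124; 0.0473 with DESeq2). The control sections differed more from each other than control replicate 2 differed from the rNLS8 sections. The upper layers gave 68.9 and 33.8 against 22.7 and 21.1 CPM (log2 -1.21 ± 0.32, adjusted p = 0.0756; 0.0493 with DESeq2). In the claustrum the order was the other way, at 19.8 and 13.2 against 22.3 and 24.6 CPM (adjusted p = 0.594). In the striatum Crh was at 26.8 and 19.5 against 16.9 and 5.52 CPM.

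Nts, the precursor of neurotensin, was tested where it was high enough. In the septum it was at 86.6 and 57.9 CPM in control and 63.2 and 39.6 CPM in rNLS8 sections, with overlap (log2 -0.41 ± 0.34, adjusted p = 0.841). In the striatum it was at 38.9 and 12.7 against 10.3 and 9.20 CPM, and control replicate 1 set that difference, which was -1.36 ± 0.47 with it (adjusted p = 0.223) and -0.36 without it. In the cortex, at 4.73 and 2.32 against 3.09 and 1.05 CPM, a difference was not detectable at this depth.

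In the striatum, septum, fibre tracts and meninges no member was called by edgeR's quasi-likelihood test. In the striatum 0 of 7 were called, beside 0.766% of 12018 genes (0.325% higher and 0.441% lower), with 4 at an unadjusted p under 0.05 (15.6% of genes) and 1, Tac2, called by DESeq2 (3.00% of genes). In the septum 0 of 7 were called, beside 0% of 8292 genes, with 1 at an unadjusted p under 0.05 (7.36% of genes) and 0 by DESeq2 (0.0121% of genes). In the fibre tracts 0 of 6 were called, beside 0.350% of 9429 genes (0.212% higher and 0.138% lower), with 1 at an unadjusted p under 0.05 (12.8% of genes) and 0 by DESeq2 (0.615% of genes). In the meninges 0 of 7 were called, beside 0.276% of 10522 genes (0.0950% higher and 0.181% lower), with 3 at an unadjusted p under 0.05 (11.3% of genes) and 1, Npy, by DESeq2 (0.865% of genes).

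**Figure D3:**
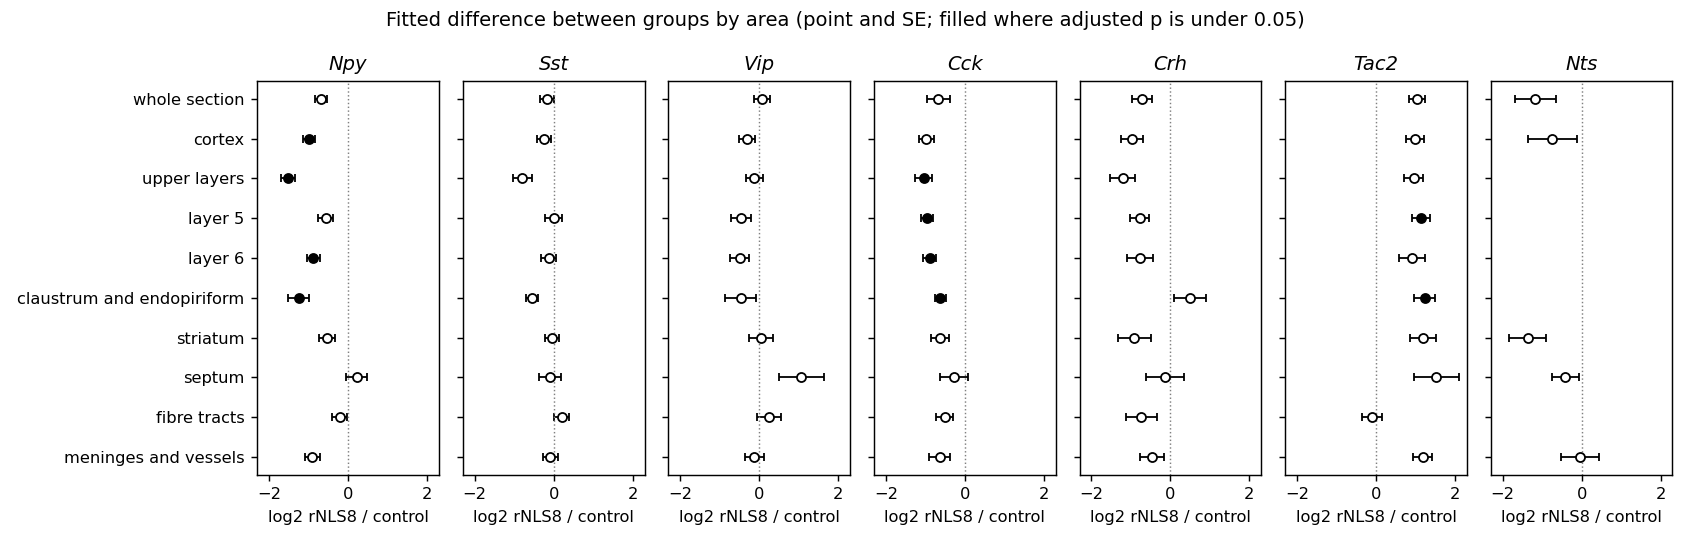
Fitted log2 difference of each gene, rNLS8 over control, with its standard error, by tissue and cortical layer class; filled points have an adjusted p under 0.05. Npy is furthest below 0 in the upper layers (-1.52), Cck lies near -1 in each layer class, and Tac2 lies above 0 in all tissues except the fibre tracts (-0.10).

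The share of cortical spots with a UMI and the UMI in such spots were then set side by side, after each spot was thinned to 3000 UMI. Npy was found in 53.8% and 60.7% of control spots and 38.8% and 39.4% of rNLS8 spots (unthinned 82.3% and 89.3% against 75.4% and 65.7%). Spots with at least 3 Npy UMI made up 13.6% ± 2.19 (SD, n = 2) of control and 5.07% ± 0.933 of rNLS8 spots, and the mean per spot with a UMI was 2.26 ± 0.106 against 1.87 ± 0.0566. Both the share of spots with Npy and its amount in them were thus lower, with no overlap between groups. At so few UMI per spot these measures can both fall when the mean level falls, so they are not independent. An exact two-sided permutation test of 2 against 2 sections cannot go below p = 0.333, which it gave for each. Bright Npy spots were present in both groups. The top 5% of thinned cortical spots held 34.1% and 33.7% of Npy UMI in control and 40.4% and 45.8% in rNLS8 sections. Without thinning, the single highest cortical spot had 56 and 82 UMI against 88 and 100. In layer 5 the highest unthinned spot had 34 of 730 and 74 of 878 Npy UMI in control sections. It had 88 of 632 and 100 of 741 in rNLS8 sections. In the upper layers the highest unthinned spot had 36 and 53 against 16 and 44. Median UMI per cortical spot was 7184 and 9608.5 in control and 11057 and 8863 in rNLS8 sections, so these unthinned maxima are not matched for depth.

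Cck was so abundant that nearly every cortical spot of both groups held it, in 98.1% and 97.4% of control and 90.0% and 93.9% of rNLS8 spots after thinning to 3000 UMI and 93.7% ± 0.141 against 81.3% ± 4.67 at 2000 UMI. The share is thus near its ceiling. Spots with at least 3 Cck UMI made up 80.4% ± 4.74 of control and 48.8% ± 10.8 of rNLS8 spots, and the mean per spot with a UMI was 5.02 ± 0.552 against 3.04 ± 0.516. Tac2 was found in 6.82% and 5.37% of control and 13.2% and 14.1% of rNLS8 spots (unthinned 15.3% and 15.1% against 33.9% and 29.1%), with 1.19 ± 0.0354 against 1.27 ± 0.0354 UMI per spot with a UMI, near the lowest value such a spot can have, so for Tac2 the amount could hardly differ. Crh was found in 13% and 7.52% against 5.30% and 5.75% of spots. For Cck, Tac2 and Crh the shares did not overlap, with an exact permutation p of 0.333 each.

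Sst and Vip shares overlapped between groups. Sst was found in 74.5% and 79.0% of control and 76.4% and 71.5% of rNLS8 spots, and Vip in 13.2% ± 3.04 against 9.97% ± 1.46 (exact permutation p = 0.667 for each). In the fibre tracts, which hold few neurons, thinned spots had Npy in 40.9% and 56.2% of control and 37.5% and 42.2% of rNLS8 cases, Sst in 71.7% to 84.1% and Tac2 in 8.09% to 15.2%. These shares are not far below those of the cortex, and for Tac2 in control sections they are above it, so a share of spots is no count of peptide-making cells. How far RNA spread between neighbouring spots was not tested.

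**Figure D4:**
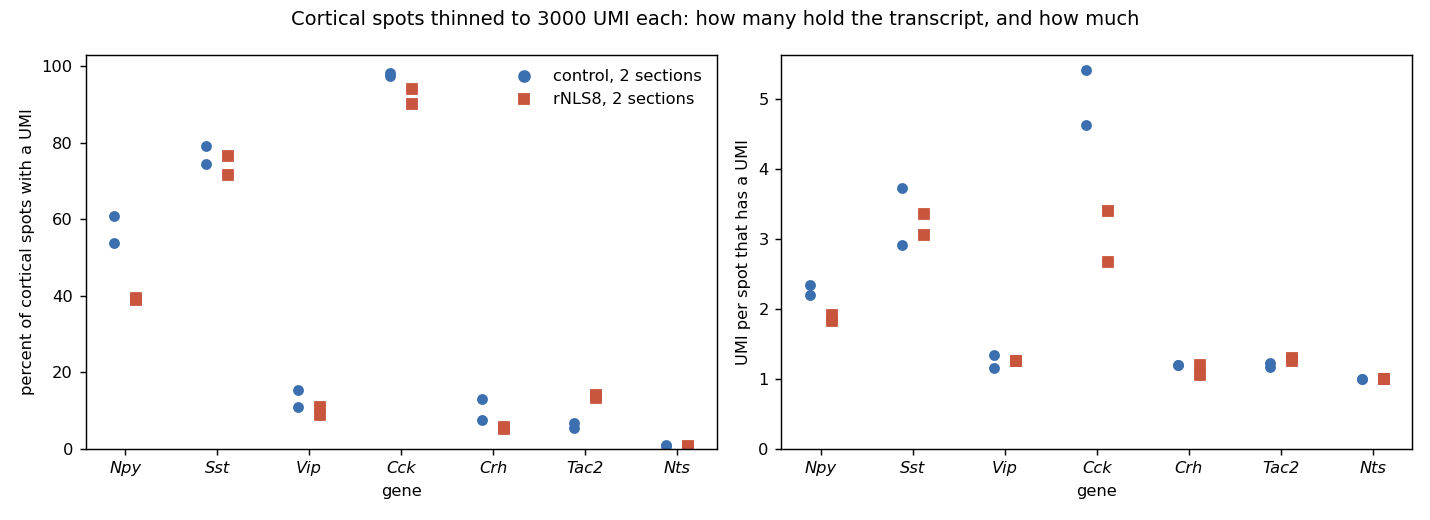
Share of cortical spots with a UMI of each gene, and mean UMI in those spots, after thinning each spot to 3000 UMI; points are sections. Npy is in 53.8% and 60.7% of control spots against 38.8% and 39.4% of rNLS8 spots, Tac2 in 6.82% and 5.37% against 13.2% and 14.1%, and Cck, whose share is near its ceiling, has 5.02 against 3.04 UMI per spot.

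Some pairs of these genes were found together in the same spots more often than elsewhere in all 4 sections, and others were not. Among thinned cortical spots with at least 3 Sst UMI, Npy was present in 59.8% and 67.0% of control and 47.1% and 51.0% of rNLS8 spots, against 51.6% and 57.5% and 35.7% and 35.5% of the other spots. Npy was therefore more frequent beside high Sst in all 4 sections and lower in both kinds of spot in the rNLS8 sections. Spots with at least 3 Npy UMI had Sst in 80.6% and 87.9% of control and 87.5% and 88.9% of rNLS8 cases, though only 98, 99, 40 and 36 such spots existed. Tac2 was present in 8.99% and 8.0% of Vip spots in control sections (8 spots in each) and 24.7% and 19.2% in rNLS8 sections (19 and 14 spots), against 6.55% and 4.89% and 11.8% and 13.6% of spots without Vip. The higher Tac2 was seen in spots with Vip and without it. Crh too was more frequent in Vip spots in all 4 sections. Other pairs were not so in each section. Crh was in 5.71% of Tac2 spots against 7.62% of the others in control replicate 2. In control replicate 1 it was in 12.1% of high Sst spots against 13.3%, and Tac2 in 5.10% of high Npy spots against 7.05%. Cck was in 89.6% and 93.2% of Vip spots in rNLS8 sections, against 90.0% and 94.0% of the others. These are descriptions of spots within sections, and no test was made of them.

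Glial markers moved with the same sections. The microglial list (10 genes) summed to 339 and 416 CPM in control cortex and 763 and 1181 CPM in rNLS8 cortex, with 5 of 10 genes called higher (C1qa, C1qb, C1qc, Trem2 and Tyrobp) and none at 0 in any section. Of 8 astrocyte genes 1 was called, Gfap (79.4 and 63.3 against 392 and 871 CPM, log2 3.15, adjusted p = 0.0353), with the list at 4230 and 4657 against 4542 and 5322 CPM and none at 0. Of 8 oligodendrocyte genes 0 were called in cortex (9965 and 7544 against 8789 and 8215 CPM), whereas in the claustrum Mobp and Mag were called higher. Within sections, the ratio of Npy in cortical spots with more microglial UMI to that in spots with fewer was 0.900 and 0.883 in control and 0.859 and 0.729 in rNLS8 sections. It was 1.03 and 0.919 against 0.895 and 0.813 for Cck and 0.788 and 0.965 against 1.08 and 0.936 for Sst. In the upper layers the Npy ratio was 1.10 and 0.664 in control and 1.06 and 0.988 in rNLS8 sections, so it had no common direction there. In layer 5 it was 0.817 and 0.883 in control and 0.726 and 0.591 in rNLS8 sections. The part of glial RNA in the peptide differences was otherwise not tested.

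No other inhibitory neuron gene was called in the cortex, a count near the share of 1.05% among all genes. Of 28 such genes without peptides, among them the GABA synthesis gene Gad2 and the fast-spiking marker Pvalb, 27 were tested and 0 were called in the cortex by edgeR, and their median log2 difference was 0.08 against 0.02 over all genes. Their summed level was 1500 and 1675 CPM in control and 1793 and 1402 CPM in rNLS8 cortex, with overlap. Gad2, named after its values were seen, was at 70.2 and 99.2 against 98.6 and 77.5 CPM, Pvalb at 185 and 298 against 289 and 163 CPM, the potassium channel gene Kcnc1 at 247 and 234 against 292 and 216 CPM, and Satb1 at 102 and 177 against 205 and 162 CPM, each with overlap. In the test of upper layers against layer 5, which gave the Npy and Sst differences, Pvalb was called the other way (log2 0.44 ± 0.11, adjusted p = 0.0433), 1 of 27 genes of the list. Of 12 excitatory neuron genes 0 were called in the cortex, with a median of -0.42 and a sum of 14031 and 12962 against 9497 and 9758 CPM. In the upper layers 2 of the 12 were called lower, the calmodulin-binding gene Nrgn (1948 and 2178 against 1102 and 762 CPM, adjusted p = 0.0211) and the kinase inhibitor gene Camk2n1 (1963 and 2107 against 787 and 976 CPM, adjusted p = 0.0112). Nrgn was also called lower in layer 5 (adjusted p = 0.020), layer 6 (adjusted p = 0.0340) and the claustrum (adjusted p = 0.0208).

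Receptors and binding proteins of the 7 peptides did not pass the test in the cortex: 0 of 15 tested were called by edgeR, of 19 listed, with a median log2 difference of -0.35. The 4 with the highest levels were Sort1, the sorting receptor that binds neurotensin (815 and 489 against 429 and 389 CPM, adjusted p = 0.201), Ntsr2 (343 and 242 against 259 and 267 CPM), Sstr4 (172 and 131 against 114 and 123 CPM) and Cckbr, the main brain receptor of Cck (87.6 and 75.5 against 48.2 and 56.5 CPM, log2 -0.64, adjusted p = 0.109). Cckbr and Sstr4 were lower in both rNLS8 sections than in either control section, and Ntsr2 overlapped. Npy1r (4.91 and 5.72 against 9.63 and 9.41 CPM, adjusted p = 0.166) and Ntsr1 (5.64 and 9.13 against 15.2 and 16 CPM, adjusted p = 0.121) were named after their values were seen and lay the other way. Of others named after their values were seen, Tacr3, the Tac2 receptor, was at 0.618 CPM or lower in every section and was not tested. Cckar, Vipr2 and Sstr5 had 0 UMI in the cortex of all 4 sections.

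Of 14 genes for peptide processing and dense-core vesicles 1 was called in the cortex, with a median of -0.34. This gene was Scg5, which encodes the 7B2 chaperone of the convertase Pcsk2, and it fell from 769 and 694 CPM to 303 and 242 CPM (log2 -1.42 ± 0.17, adjusted p = 0.0324). Scg5 was also called lower in each layer class, the claustrum, striatum, fibre tracts and meninges. The granin Chgb was at 362 and 325 against 195 and 183 CPM in the cortex (adjusted p = 0.0526) and was called lower in layer 5 (adjusted p = 0.0381), layer 6 (adjusted p = 0.0227) and the claustrum (adjusted p = 0.00251). The abundant Pcsk1n was at 6064 and 4917 against 6118 and 5882 CPM, with overlap.

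Of 29 other neuropeptide precursors 27 were listed and 13 tested in the cortex, and 0 were called, with a median log2 difference of -0.15. Penk, the enkephalin precursor, was at 45.4 and 65.0 against 40.8 and 15.3 CPM, and Nppc, Cartpt and Pdyn overlapped. Cort, a close relative of Sst, had 0 UMI in both control cortices and 24 and 43 UMI in the rNLS8 cortices (adjusted p = 0.0526). In layer 5 it was called (adjusted p = 0.0306), with 0 and 0 against 15 and 21 UMI. That is at least 4.76-fold higher when a count of 0 is read as up to 3 counts per section. Cort was at 0 in the control sections as a whole, like Tardbp, and the part of the probe set or library in this was not tested.

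**Figure D5:**
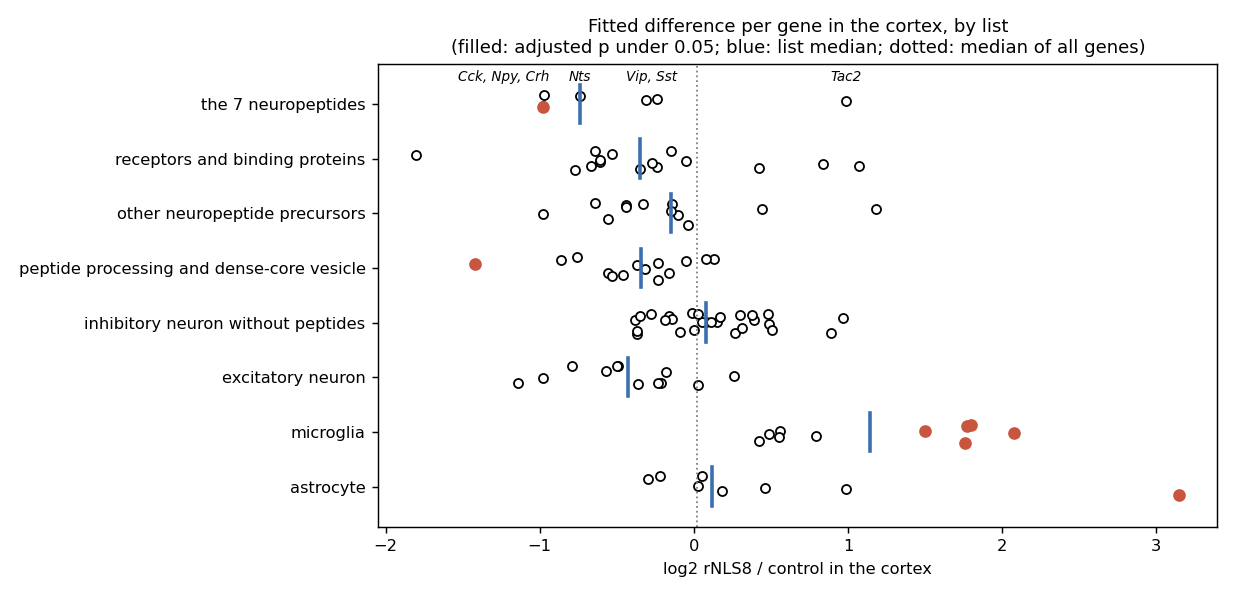
Fitted log2 difference in the cortex for each gene tested, by list; filled points have an adjusted p under 0.05, blue bars are list medians and the dotted line is the median of all genes (0.02). Npy is the called peptide, Scg5 the called processing gene and the 5 called microglial genes and Gfap lie to the right; Cort, with 0 UMI in control cortex, is counted in its list's median but not drawn.

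Genes with the map most like each peptide were sought over 9 clusters with at least 50 spots in every section, by the correlation of centred log2 levels in the control sections (18 points, which share libraries and depth), among 10294 genes. No neocortical cluster met that size, so this likeness is over other tissues. The first named were Kcnmb4, Mpped1 and Neurod2 for Cck (Pearson's r 0.93, 0.92 and 0.92), which kept 0.86, 0.92 and 0.93 in the rNLS8 sections. For Npy they were Extl1, Mmp17 and Gng13 (0.87, 0.85 and 0.84), with 0.15, 0.59 and 0.58 in the rNLS8 sections. For Sst they were Mllt11, Rogdi and Rgs17 (0.94, 0.92 and 0.92, then 0.63, 0.68 and 0.55). For Vip they were Kcnk4, Ephb3 and Adcy1 (0.89, 0.86 and 0.84, then 0.48, 0.22 and 0.28). For Nts they were Spint2, Nrsn2 and Limk2 (0.92, 0.87 and 0.86, then 0.70, 0.69 and 0.33). For Crh they were Ank1, Krt12 and Adarb1 (0.91, 0.89 and 0.86, then 0.18, 0.15 and 0.22), and for Tac2 Arnt2, Selplg and Cadm4 (0.91, 0.81 and 0.79, then 0.44, 0.31 and 0.20). The genes were picked for their control correlation, so lower values in the rNLS8 sections follow in part from the choice. Over the layer classes and other tissues instead, a choice made after seeing the data, 1 of the 3 genes stayed the same for Npy (Extl1), Sst (Mllt11), Vip (Kcnk4) and Cck (Mpped1), and none for Crh, Tac2 and Nts.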

How the data were processed

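The authors deposited, per section, a matrix of raw UMI counts per gene and spot without normalization, made with Space Ranger 2.1.0 per the file headers and on mm10 per the submitters' processing notes. Deposited with them, per the file headers, was each gene's Moran's I, a score of spatial clustering. The labels name neither the probe set nor the sequencing runs. A minimum of 500 UMI per spot removed 152, 37, 2 and 1 spots. Spots of the 4 sections were clustered together (2000 variable genes without the 7 members and the pathway lists, 30 principal components, 15 neighbours, leidenalg 0.10.2 at resolution 1), and clusters were named by markers. Counts were summed per section and tissue and fitted across all genes passing the default filter with edgeR 4.0.16's quasi-likelihood test (R 4.3.3, limma 3.58.1), trimmed-mean scaling and Benjamini-Hochberg adjustment. A member was called at an adjusted p under 0.05. A tissue was tested with at least 50 spots in every section. Every adjusted p without a tool's name is edgeR's. Alternatives used DESeq2 1.42.0, no filter, a replicate block, left-out sections, Leiden 0.6 and 1.6, unaveraged layer scores and no rim spots. Shares used spots thinned to 3000 UMI (2000 as an alternative) and exact permutation tests (Python 3.11.15, scipy 1.17.1). The edgeR tests were also tried on counts simulated from the levels of these sections, with results not given here. Floors cover counting error only. Named genes were all 7 members, called genes of each list or otherwise up to 4 of the highest level, and the 3 most alike in map per member. Members and lists were chosen with earlier results of these data known. Images and the deposited p-values were not used.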

Additional observations from a re-analysis of the deposited data

Results flagged for a closer look

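The rNLS8 effect on Npy differed between the upper layers and layer 5, by -0.92 on the log2 scale in the test of the difference itself (adjusted p = 2.51e-07 by edgeR's quasi-likelihood test), with the upper-to-layer 5 ratio lower in 2 of 2 rNLS8 sections than in either control section. The effect on Npy also differed between the upper layers and layer 6, by -0.62 (adjusted p = 0.000866), again with lower ratios in 2 of 2 rNLS8 sections (1.06 and 0.887 in control against 0.656 and 0.595). That difference was lost without averaging over neighbouring spots (-0.09, adjusted p = 0.869) and with DESeq2 (adjusted p = 0.184). The effect on Sst differed between the upper layers and layer 5 by -0.78 (adjusted p = 0.00318), with lower ratios in 2 of 2 rNLS8 sections, but not with DESeq2 (adjusted p = 0.992) or without rNLS8 replicate 2 (adjusted p = 0.0884). The marker genes that define the upper layers were in part lower in the same sections (Calb1, Lamp5). How much they moved the layer boundaries was not tested, since scoring without neighbours used the same markers.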

How the results depend on the processing

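The number of members called moved with the tool and the sections. With DESeq2 it was 2 instead of 0 in whole sections, 4 instead of 1 in the cortex, 4 instead of 2 in the upper layers, 1 instead of 3 in the claustrum (where DESeq2 gave no adjusted p for Tac2), 1 instead of 0 in the striatum and in the meninges, 1 instead of 2 for upper layers against layer 5, and 0 instead of 1 against layer 6. DESeq2 at the same time called 3.93% instead of 0% of all genes over whole sections, 5.25% instead of 1.05% for the cortex, and 3.61% instead of 3.03% for the upper layers. It called 157 instead of 228 of 8694 genes in the claustrum, 361 instead of 92 of 12018 in the striatum and 91 instead of 29 of 10522 in the meninges. Of 11031 genes it called 15 instead of 64 for upper layers against layer 5 and 2 instead of 26 against layer 6. Without the filter on low counts the number of members called was 1 in whole sections and 2 in the cortex. It was 5 in the upper layers, 4 in the striatum and 3 in the meninges. It was 3 for cortex against other spots and 2 for upper layers against layer 6. Of all genes, 1.43% were called over whole sections, 2.14% for the cortex and 5.11% for the striatum. Also called were 564 of 14787 genes in the upper layers and 284 of 14785 in the meninges. For cortex against other spots 234 of 16714 genes were called, and 47 of 15590 for upper layers against layer 6. At Leiden resolution 1.6, 0 members were called in the cortex, beside 47 of 12264 genes. Without averaging over neighbouring spots 1 member was called in layer 5, beside 200 of 10472 genes. For upper layers against layer 6 there were then 0 members, beside 51 of 11016 genes. For layer 5 against layer 6 there were 2 members, beside 4 of 11016 genes.

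With 1 section left out at a time, the number called ranged from 0 to 2 in whole sections, 0 to 5 in the cortex, 1 to 5 in the upper layers, 0 to 5 in layer 5, 0 to 4 in layer 6, 0 to 3 in the claustrum, 0 to 2 in the striatum, 0 to 1 in the septum, 0 to 1 in the fibre tracts, 0 to 3 in the meninges, 0 to 2 for cortex against other spots, 1 to 2 for upper layers against layer 5, 1 to 2 against layer 6, and 0 to 1 for layer 5 against layer 6. The share of all genes called moved as well, in the cortex from 0.930% (without rNLS8 replicate 2) to 31.8% (without control replicate 2), and for the upper layers from 0.946% to 21.8%, so the members' counts are no measure of the members alone. A lone section was then assumed to vary like the other group. In the cortex 0 members were called without either rNLS8 section.

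Same-numbered sections did not deviate together (correlation -0.01 over whole sections and -0.05 in the cortex), so the numbers were not treated as pairs. With the replicate block, 0 members were called in whole sections, 3 in the cortex, 1 in the upper layers, 2 in layer 5 and 2 in layer 6. There were 4 in the claustrum, 2 in the striatum and 0 in the septum, fibre tracts and meninges. Of all genes the block fit called 78 of 13444 over whole sections, 417 of 12068 in the cortex and 180 of 10626 in the upper layers. It called 463 of 10608 in layer 5, 211 of 10354 in layer 6, 348 of 8694 in the claustrum and 366 of 12018 in the striatum. In the septum, fibre tracts and meninges it called 2 of 8292, 89 of 9429 and 43 of 10522.

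Differences that changed sign were all uncalled in the analysis reported. With DESeq2 Sst in layer 5 was -0.01. Tac2 for cortex against other spots was 0.00 at Leiden 0.6 and 0.01 at Leiden 1.6. Without averaging, Tac2 for upper layers against layer 5 was 0.22, Vip for upper layers against layer 6 was -0.17, and for layer 5 against layer 6 Vip was -0.31 and Crh -0.26. With 1 section left out, log2 differences ran from -0.15 to 0.29 for Vip in whole sections, -0.31 to 0.08 for Vip in the upper layers, -0.32 to 0.37 for Sst in layer 5 and -0.35 to 0.06 for Sst in layer 6. In the striatum they ran from -0.27 to 0.15 for Sst and -0.27 to 0.38 for Vip. In the septum they ran from -0.12 to 0.50 for Npy, -0.61 to 0.28 for Sst, -0.92 to 0.24 for Cck and -0.73 to 0.09 for Crh. Npy in the fibre tracts ran from -0.47 to 0.02. In the meninges they ran from -0.34 to 0.14 for Sst, -0.28 to 0.00 for Vip and -0.28 to 0.34 for Nts. For cortex against other spots they ran from -0.34 to 0.26 for Sst and -0.21 to 0.11 for Tac2. For upper layers against layer 5 they ran from -0.24 to 0.07 for Cck and -0.38 to 0.01 for Tac2, and against layer 6 from -0.37 to 0.03 for Cck and -0.25 to 0.37 for Tac2. For layer 5 against layer 6 they ran from -0.32 to 0.66 for Sst, -0.28 to 0.33 for Vip, -0.18 to 0.21 for Crh and -0.07 to 0.46 for Tac2. The share of cortical spots with at least 3 Nts UMI differed by 0 percentage points. The causes were not tested.

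Layers taken from named clusters were not run, since no layer cluster had 50 spots in every section. Leaving out the rim spots, chosen after seeing the data, changed no call in whole sections or for cortex against other spots. Depth limits Nts, Crh, Vip and Tac2 most, and 2 sections per group limit every test.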
